A study of Mus musculus with 2 samples.

Results

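A group of 587 windows of 1 kb was examined, all of them low in DNA methylation in the mouse haploid embryonic stem cell line A129-2 and at least 50% methylated in the line AOS-14. The windows are fixed stretches of the genome that hold at least 5 CpGs with 10 or more reads in both lines. Members had a mean CpG level under 20% in A129-2 and of at least 50% in AOS-14. They make up 1.15% of the 51142 windows that could be compared, and 587 of the 2752 windows that reached 50% in AOS-14. The other 2165 of those windows, which kept 20% or more in A129-2, are called kept windows below.

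CpG methylation was read by bisulfite sequencing in A129-2, on a 129Sv background, and in AOS-14, on a C57BL/6 background. Both are haploid lines that the labels describe as sorted from AG-haploid embryos, and AG is the usual short form of androgenetic, with the single genome coming from sperm. There was 1 library per line, so line, strain and library cannot be told apart, and none of the differences given has a replicate check. A129-2 had 1065668 CpGs with 10 or more reads and AOS-14 had 1165015; 1030368 had them in both, with medians of 79 and 97 reads.

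In mammalian cells the methyl group at a CpG is copied to the new strand after replication by the enzyme DNMT1 and set anew by the DNMT3 enzymes. Mouse embryonic stem cells can lose much of their genomic methylation in some culture conditions, and the loss is uneven along the genome. Repeated elements, among them L1 and IAP elements, are a main place of methylation in mouse DNA, and some IAP copies are known to keep it when the rest is lost. This is background: whether a window here belongs to a known repeat family was not tested, because no repeat annotation was used.

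A recurring arrangement of CpGs stood out in these windows, and its letters are shown first because most members hold it. In a stretch of 52 bp, a CpG inside CCGG is followed by CpGs 7, 14, 19 and 23 bp further on and by another CCGG at the end. A copy was counted where both outer CCGG and at least 3 of the 4 inner CpGs were listed, on either strand. The arrangement was defined after the members were seen. The authors' tables give only the letters next to each CpG, so the letters between are unknown and written n, and the CpGs are in capitals. The 4 most frequent forms in members, with all 6 CpGs listed or with 1 inner CpG not listed, were these.
variant 1: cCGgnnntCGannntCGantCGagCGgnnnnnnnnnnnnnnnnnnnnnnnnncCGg
variant 2: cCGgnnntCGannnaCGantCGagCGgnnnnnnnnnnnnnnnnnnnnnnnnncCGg
variant 3: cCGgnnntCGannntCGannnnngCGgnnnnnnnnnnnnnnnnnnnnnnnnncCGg
variant 4: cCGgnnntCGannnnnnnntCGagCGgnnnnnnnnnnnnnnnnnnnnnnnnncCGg

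Among copies in members, 204 had the letters of variant 1, 86 those of variant 2, 65 those of variant 3 and 45 those of variant 4. Variant 2 differs from variant 1 in the letter before the third CpG. In variants 3 and 4 the fourth and the third CpG of variant 1 were not listed. Whether such a CpG is absent from the sequence or had no reads is not known.

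The unknown letters could be read where a copy lies in the RefSeq promoter table, whose assembly, GRCm38.p6, is that of mm10 and which gives 250 bases before and 50 after each gene start. In 32851 promoters, 10 copies with at least 3 of the 4 inner CpGs were found. Only 2 promoters held a copy with all 4 (0.00609%), those of the gene models Gm36816 and A230004M16Rik. These 2 copies are chr6:67009034-67009089 and chr11:41710258-41710313. Both are shown in the direction of variant 1 and with the CpGs of the unit in capitals.
Gm36816: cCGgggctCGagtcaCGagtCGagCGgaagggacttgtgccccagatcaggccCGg
A230004M16Rik: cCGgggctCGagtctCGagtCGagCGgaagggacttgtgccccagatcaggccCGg
The copies are the same at 55 of 56 bases. Gm36816 has the letters of variant 2 and A230004M16Rik those of variant 1, each with 0 mismatches over the 24 letters known for these forms.

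The whole promoter of Gm36816 (chr6:67008938-67009237, minus strand) is shown because a member window lies 0.107 kb from its start. The CpGs of the unit, which here runs on the other strand, are in capitals.
Gm36816 promoter: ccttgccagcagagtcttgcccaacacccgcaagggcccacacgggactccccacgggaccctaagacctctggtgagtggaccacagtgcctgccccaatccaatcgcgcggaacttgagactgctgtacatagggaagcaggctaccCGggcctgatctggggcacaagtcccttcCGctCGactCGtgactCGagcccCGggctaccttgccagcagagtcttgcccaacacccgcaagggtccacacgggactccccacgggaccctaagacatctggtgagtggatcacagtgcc
Its first 92 bases recur 208 bp further on, with 89 of 92 bases the same. The promoter holds 15 CG pairs and 63% G and C.

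The member next to this promoter (chr6:67008827-67008880, inside Gm36816 and inside Gng12, which encodes a gamma subunit of heterotrimeric G proteins) shows the pattern CpG by CpG. Along its 6 CpGs, A129-2 had levels of 31.0%, 3.73%, 7.87%, 12.1%, 8.40% and 21.3%. AOS-14 had 75.5%, 51.8%, 55.8%, 69.7%, 73.2% and 65.6% at the same CpGs. Every CpG was lower in A129-2, and in both lines the second CpG was the lowest. The window means were 14.1% in A129-2, from 647 reads, and 65.3% in AOS-14, from 1292 reads. The CpGs of the A230004M16Rik copy had too few reads to be compared.

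Methylation in members was lower in A129-2 at nearly every site, though it was not gone. The mean over members was 15.4% in A129-2, against 57.6% in AOS-14, a ratio of 0.266. The ratio was 0.575 in kept windows and 0.615 over all windows. Single members ranged from 2.28% to 19.96% in A129-2 and from 50.02% to 76.5% in AOS-14, and the medians were 15.7% and 57.3%. The difference was -42.3 points on average, with an SD of 5.96 over the 587 windows, and its median was -42.1 points against -2.85 over all windows. These values chose the members and are a description. For the same reason all 587 members passed the read test used below, which called 5.04% of all windows lower in A129-2 and 0.0137% higher, and nothing is read from that count.

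Few members were close to empty in A129-2, where 25 had a level under 10% and 339 a level of 15% or more. In AOS-14, 195 members lay between 50% and 55% and 9 at 70% or more. Many windows lay just past the limits: 293 had under 20% in A129-2 but 45% to 50% in AOS-14, and 427 had 20% to 25% in A129-2 and 50% or more in AOS-14.

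The members nearest the AOS-14 limit were chrX:168496238-168496908, inside Frmpd4, at 13.3% in A129-2 and 50.02% in AOS-14, chr15:27389849-27389884 at 19.204% and 50.04%, and chr2:147672470-147672545 at 18.9% and 50.05%. Just outside it were a window in Abcg1, at 15.1% in A129-2 and 49.98% in AOS-14, a window of chromosome Y at 13.1% and 49.97%, and a window in Stk24 at 16.01% and 49.94%. On the A129-2 limit, a window in the kininogen gene Kng2 was just inside at 19.96% in A129-2 and 58.7% in AOS-14, with chr8:120128591-120128733 at 19.92% and 51.4% and chr3:46936092-46936138 at 19.90% and 59.4%. A window in Tafa2 was just outside at 20.04% in A129-2 and 58.1% in AOS-14, as were chr10:124576636-124576674 at 20.10% and 51.2% and chr3:91607006-91607129 at 20.13% and 56.3%.

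**Figure D1:**
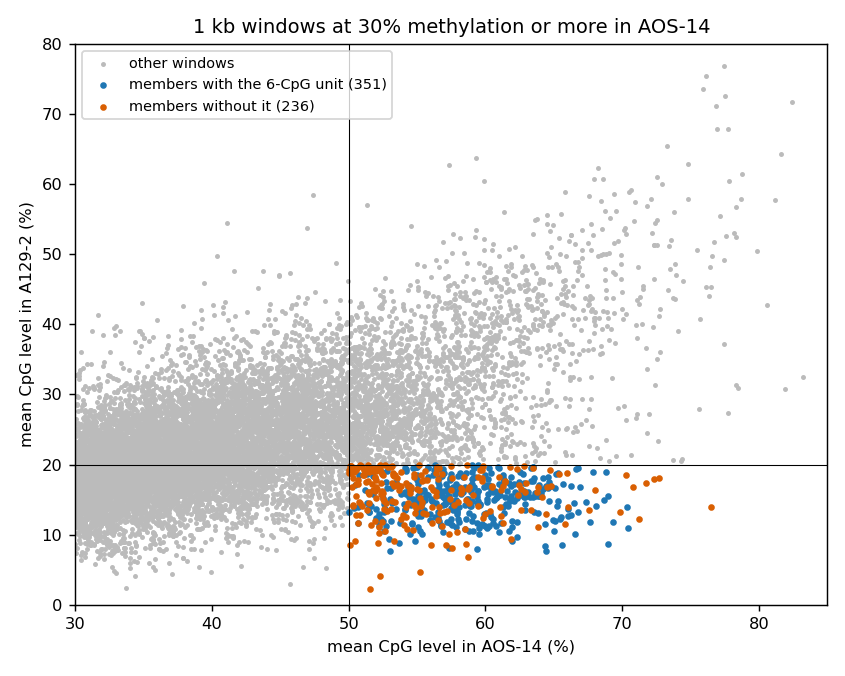
Mean CpG level of each 1 kb window in A129-2 (vertical axis, %) against its level in AOS-14 (horizontal axis, %), for windows at 30% or more in AOS-14. Blue points are the 351 members with the 6-CpG unit, orange points the 236 members without it and grey points other windows; the lines mark 50% in AOS-14 and 20% in A129-2, and the members form the lower right block without a gap to the windows around them.

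The levels of single CpGs are given here as a description, since their window means chose the members and had to differ by over 30 points. Of 6171 compared CpGs in members, 6164 were lower in A129-2 (99.9%), against 62.4% of all compared CpGs. In 580 of the 587 members every compared CpG was lower. Only 11 CpGs had a level under 5% in A129-2 and of 80% or more in AOS-14. The strands gave like levels. At the 2667 CpGs with 10 or more reads on each strand in both lines, the plus and minus strands had means of 14.2% and 14.5% in A129-2 and of 56.5% and 55.8% in AOS-14.

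CpGs inside CCGG were higher than the others in both lines. They made up 27.1% of the CpGs of members and averaged 22.99% in A129-2 and 63.4% in AOS-14. The other CpGs of members averaged 12.7% in A129-2 and 55.5% in AOS-14. CCGG CpGs were 35.9% of CpGs in kept windows and 23.9% over all windows.

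Members were deeply covered. The median member had 7 compared CpGs, with a range of 5 to 59, which spanned 222 bp, and 188 reads per CpG in A129-2 and 169 in AOS-14. The ratio of A129-2 reads to AOS-14 reads had a median of 0.9995 over members, and the central 95% of members lay between 0.258 and 2.52. Over all windows the median ratio was 0.841.

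The 6-CpG unit was found in 351 of the 587 members (59.8%). It was found in 130 of 2165 kept windows (6.00%) and in 75 of 48390 windows under 50% in AOS-14 (0.155%). No test was run on these shares, since the unit was defined from the members. Members with the unit averaged 14.998% in A129-2 and 58.8% in AOS-14, and members without it 15.9% and 56.0%. The unit windows were the deeper ones, with medians of 255 reads per CpG in A129-2 and 215 in AOS-14, against 94.8 and 125 in members without it. How reads that map to several copies were placed is not given in the sources used here, so a level at one copy may hold reads from others, and the part this plays was not tested.

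The shares were also taken within ranges of the AOS-14 level, as a description. Between 50% and 55% in AOS-14, 75% of windows with the unit and 11.7% of windows without it were members. Between 60% and 65% the shares were 71.7% and 9.31%. The median A129-2 level in that range was 17.0% in windows with the unit and 37.6% in windows without it. Above 70% in AOS-14, 2 of 13 unit windows and 7 of 95 other windows were members.

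The levels followed the position in the unit. The first CpG, a CCGG, averaged 26.1% ± 8.40 in A129-2 and 67.4% ± 8.07 in AOS-14 (SD over 493 copies in members). The second was the lowest in both lines, at 8.26% ± 4.18 in A129-2 and 45.8% ± 6.74 in AOS-14 (SD over 500 copies). The third stood at 10.9% and 49.98% and the fourth at 14.8% and 62.1%. The fifth was at 14.6% ± 7.32 in A129-2 and was the highest in AOS-14, at 72.7% ± 7.16 (SD over 473 copies), the largest of the 6 differences at -58.0 points. The last, a CCGG, had 20.3% in A129-2 and 64.2% in AOS-14. Every compared copy in members was lower in A129-2 at each of the 6 positions, which the choice of members largely fixes. Over all copies, in any window, the counts lower in A129-2 lay between 702 of 715 at the fifth position and 747 of 751 at the last. Copies are not replicates of the lines.

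**Figure D2:**
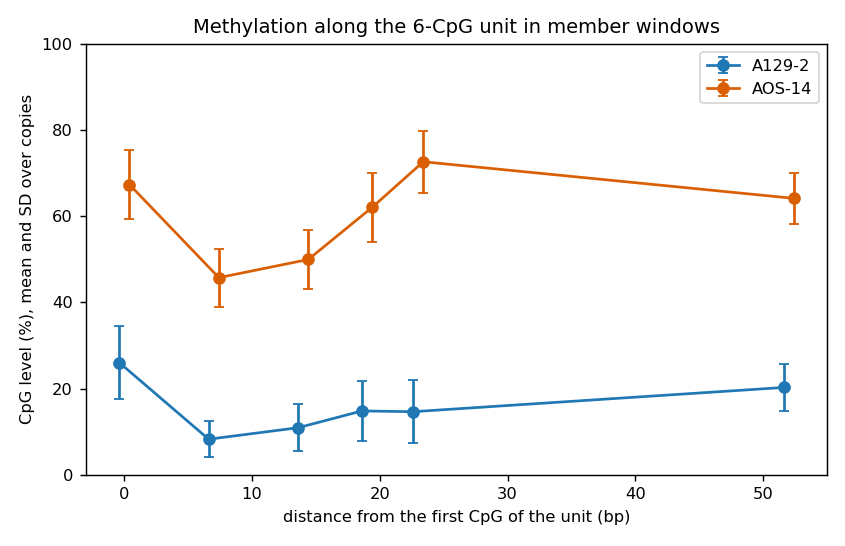
Mean CpG level (%) at the 6 positions of the unit in member windows, for A129-2 (blue) and AOS-14 (orange), against the distance from its first CpG in bp; bars are the SD over copies. A129-2 lies below AOS-14 at each position, the second position is lowest in both lines and the fifth is highest in AOS-14 at 72.7%.

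The forms of the unit had these means in members. Copies of variant 1 in members averaged 17.9% in A129-2 and 61.5% in AOS-14, and those of variant 2 15.2% and 62.3%. A form with the fourth CpG not listed and the letter change of variant 2 (23 copies) was at 9.58% in A129-2, against 53.7% in AOS-14. The form of variant 1 with the fifth CpG not listed (43 copies) was at 12.6% and 58.3%. Each form keeps a different set of positions, so these means do not compare like CpGs.

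Copies often stood in rows. Of 228 pairs of copies in members that pointed the same way and lay within 1 kb, 173 were 208 bp apart, 28 were 416 bp apart and 12 were 624 bp apart. No pair of neighbours pointed in opposite directions. The spacing of 208 bp is also that of the repeated stretch in the Gm36816 promoter.

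Copies that lie in no eligible window played no part in choosing the members. There were 55 of them among 839 copies in all. Their pooled level was 14.4% in A129-2 (exact 95% binomial interval 13.9 to 14.9, 20583 reads) and 54.5% in AOS-14 (53.9 to 55.04, 30158 reads). The 531 copies in members had 14.5% in A129-2 and 59.6% in AOS-14, and 176 copies in kept windows had 20.5% and 64.1%. The 77 copies in windows under 50% in AOS-14 had 12.2% in A129-2 and 46.2% in AOS-14. The intervals cover counting error only.

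Some members without the unit had part of its CpGs. Of 236 such members, 78 (33.1%) had CpGs at 4 or more of the 6 positions in one register, against 4.37% of kept windows without the unit. Windows under 50% in AOS-14, which hold more CpGs, reached 13.5%. The 78 averaged 15.3% in A129-2 and 58.0% in AOS-14. Over all members, 460 (78.4%) held a run of 5 CpGs whose steps and neighbouring letters occur at 10 or more places in the tables, against 48.7% of kept windows and 19.4% of all windows. The 127 members with no such run averaged 15.5% in A129-2, against 56.4% in AOS-14.

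The window with the largest difference holds part of the unit by its letters. Over the 6 CpGs of chr14:28620958-28620989, 28.7 kb from Gm35164, A129-2 had 26.7%, 6.25%, 10.9%, 10.4%, 9.96% and 19.106%. AOS-14 had 86.4%, 63.2%, 66.3%, 70.3%, 79.6% and 93.03%. The means were 13.9% in A129-2, from 1236 reads, and 76.5% in AOS-14, from 1496 reads. Its letters, and those of other members without the unit that are named below, are shown with CpGs in capitals.
largest difference: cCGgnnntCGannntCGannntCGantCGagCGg
lowest in A129-2: tCGcnaCGCGgnnnnnnnnncCGanncCGg
Pkhd1: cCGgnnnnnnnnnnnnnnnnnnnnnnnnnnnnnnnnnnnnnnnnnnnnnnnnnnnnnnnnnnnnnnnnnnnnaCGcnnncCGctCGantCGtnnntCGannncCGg
Hspb3: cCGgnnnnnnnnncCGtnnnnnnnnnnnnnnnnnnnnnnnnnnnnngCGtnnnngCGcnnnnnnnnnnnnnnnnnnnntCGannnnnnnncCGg
The last 4 CpGs of the first have the steps and neighbouring letters of the inner CpGs of variant 1. Pkhd1 holds the same run of steps, 4, 5 and 7 bp, read on the other strand. The other windows shown here share no such run.

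Of the other 9 members with the largest differences, 7 carried the unit itself, among them a window in Mup-ps15 given further below. At chr5:52902026-52902497, 11 CpGs averaged 8.66% in A129-2 and 68.9% in AOS-14. At chr4:95509943-95509996 the levels were 10.9% in A129-2, against 70.4% in AOS-14. Inside the gene model Gm2046 (chr12:87979730-87979783) they were 11.7% and 69.4%. At chr9:22903371-22903631 they were 7.65% and 64.5%. On chromosome X, chrX:150020057-150020311 had 10.1% in A129-2 and 66.5% in AOS-14, and the window before it, chrX:150019754-150019826, had 12.2% and 71.2% and no unit. On chromosome Y, chrY:12622771-12622824 had 13.9% in A129-2, against 70.3% in AOS-14. The window chr7:11797154-11797179, with no unit, had 13.2% and 69.8%. In each of these 8 windows every CpG was lower in A129-2.

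The 4 lowest levels in A129-2 were in windows without the unit, and some rest on few reads. The window in the gene model Gm34372 (chr2:34639203-34639230) had 2.28% in A129-2, from 477 reads, and 51.5% in AOS-14, from 228 reads. No CpG in it exceeded 5.77% in A129-2 or fell under 42.0% in AOS-14. Next came chrX:67911567-67911673, at 4.17% in A129-2, against 52.3% in AOS-14, from only 68 and 65 reads. Then came chr5:126052109-126052228 at 4.65% in A129-2, against 55.2% in AOS-14, and chr4:15237236-15237974 at 6.84% and 58.7%.

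The highest levels in AOS-14 after the chromosome 14 window were at chr7:10930525-10930550, with 18.1% in A129-2 and 72.7% in AOS-14, and at chrX:65002564-65002713, with 18.0% and 72.3%. The window chr10:22972743-22972862 had 17.3% in A129-2 and 71.7% in AOS-14. None of these 3 held the unit.

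**Figure D3:**
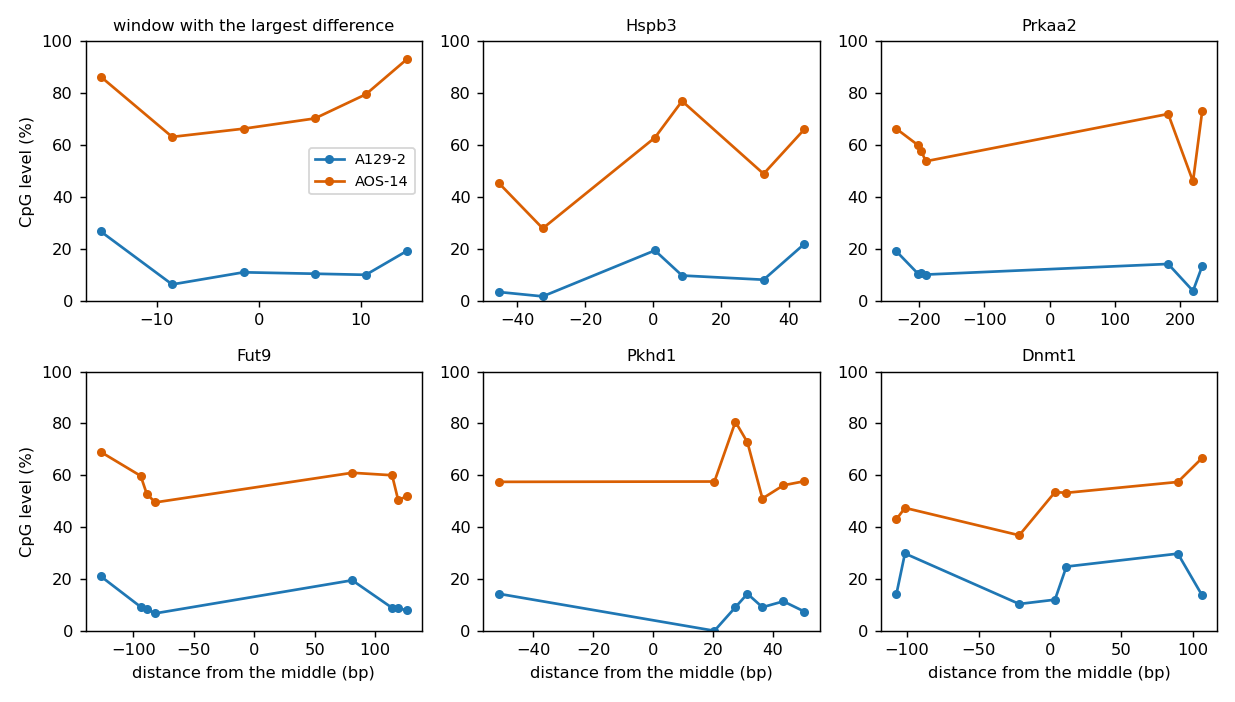
CpG levels (%) along 6 member windows without a complete unit, in A129-2 (blue) and AOS-14 (orange), against the distance in bp from the middle of the compared CpGs. In one register, Pkhd1 had CpGs at 5 of the 6 positions of the unit, Prkaa2 and Fut9 at 4, and Hspb3 and Dnmt1 at 2. The windows are the one with the largest difference and windows inside Hspb3, Prkaa2, Fut9, Pkhd1 and Dnmt1, and each CpG shown is lower in A129-2; Prkaa2 and Fut9 were chosen after their values were seen.

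Most members lay away from genes. Only 183 (31.2%) overlapped an annotated gene, against 37.8% of kept windows and 71.1% of all windows. The median distance to a gene start was 75.1 kb for members, 47.5 kb for kept windows and 10.4 kb for all windows. No gene lay within 10 kb of 328 members (55.9%; all windows 16.5%). Only 6 members (1.04%) were within 1 kb of a gene start, against 32 kept windows (1.52%) and 31.4% of all windows. More than 10 kb from a gene start lay 90.5% of members, 84.4% of kept windows and 50.6% of all windows. Distance from gene starts was thus largely shared with the kept windows. The promoter table has no entry for chromosome 18, so distances to gene starts leave it out. Members inside genes had like levels to the rest, at 15.4% in A129-2 and 57.7% in AOS-14 inside genes and 15.3% and 57.6% outside.

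Members in named genes are placed here by gene only, since the table used gives no exons. The largest differences among them include 2 pseudogenes. Mup-ps15, a pseudogene of the major urinary proteins, held a window at 8.50% in A129-2, against 65.6% in AOS-14, and another at 12.5% and 65.6%. The first of these rests on 284 A129-2 reads against 2157 AOS-14 reads (ratio 0.132), and the second on 654 against 5734 (ratio 0.114). Both ratios lie outside the central 95% of members. Rpl19-ps11, a ribosomal protein pseudogene, had 11.5% in A129-2 and 65.8% in AOS-14.

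The other genes of this group have unrelated roles. Fetub, which encodes the plasma protein fetuin-B, held a window at 15.5% in A129-2 and 68.9% in AOS-14. S100a7l2, of the S100 calcium-binding family, had 12.9% and 66.3%, and Fgf12, a fibroblast growth factor homologue that acts inside the cell, had 11.99% and 65.05%. Phka1, a regulatory subunit of phosphorylase kinase, held a pair of adjoining windows at 9.06% and 9.63% in A129-2 and at 61.9% and 62.3% in AOS-14. Ddah1, which breaks down methylated arginines, had 12.1% in A129-2 and 64.95% in AOS-14. Ano2, a calcium-activated chloride channel, had 13.7% and 66.0%. These windows carried the unit. Pkhd1, the gene of polycystic kidney and hepatic disease, had 9.36% in A129-2 and 61.9% in AOS-14 with no complete unit. Galntl6, of the GalNAc transferase family, had 11.1% and 63.8% from only 88 and 236 reads.

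Only 3 members lay within 1 kb of an end of a named gene. Hspb3 encodes a small heat shock protein of muscle, and its window (chr13:113663288-113663379) lies inside the gene, 0.297 kb from its start. Its 6 CpGs had 3.33%, 1.64%, 19.4%, 9.68%, 8.06% and 21.9% in A129-2, from 309 reads in all. In AOS-14 they had 45.5%, 27.9%, 62.9%, 76.98%, 48.9% and 66.1%, from 696 reads. The means were 10.7% in A129-2 and 54.7% in AOS-14, and each CpG was lower in A129-2. The other windows near an end were in the ribosomal protein pseudogenes Rpl19-ps11, given above, and Rpl29-ps5, at 17.2% in A129-2 and 50.6% in AOS-14.

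Members touched the chosen gene lists in 2 places. Within 10 kb of genes of DNA methylation there was 1 member among 83 windows, inside Dnmt1, which encodes the maintenance methyltransferase. This window (chr9:20912002-20912217) had 19.19% in A129-2, from 445 reads, and 51.1% in AOS-14, from 828 reads, and weighted by reads its A129-2 level was 22.2%, above the limit for members. Near imprinted genes there was 1 member among 147 windows, inside Meg3, a noncoding RNA expressed from the maternal allele. It (chr12:109549716-109549824) had 13.5% in A129-2 and 51.3% in AOS-14, from only 76 and 83 reads. Near the lists of naive pluripotency, germline, neuroectoderm, mesoderm, endoderm and trophoblast genes there were 0 members among 77 to 106 windows each. Over all windows 1.15% were members, so counts of 0 or 1 are near what lists of this size hold on average.

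Some large gene families are given here, each beside the 1.15% over all windows and with no test. Their counts of members are too small to set families apart, and other families are not given. Of windows within 10 kb of vomeronasal receptor genes, which serve pheromone sensing, 6 of 168 were members (3.57%), and of those near immunoglobulin and T cell receptor segments 4 of 95 (4.21%). Olfactory receptor genes had 3 of 203 (1.48%) and zinc finger protein genes 3 of 947 (0.317%). Only windows at 50% or more in AOS-14 can be members. Of the same windows, 19 near vomeronasal receptor genes and 10 near immunoglobulin and T cell receptor segments reached that level. Near olfactory receptor genes 23 did, and near zinc finger protein genes 31, so the shares also follow the AOS-14 level.

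Members lay on chromosomes 1 to 19, X and Y, and the most were on chromosome 10. That chromosome held 90 members among its 3098 windows (2.91%), and 70 of the 90 carried the unit. The share was 0.291% on chromosome 9 and 2.14% on chromosome 3, which had 49 members. Members made up 35.0% of the 257 windows of chromosome 10 at 50% or more in AOS-14. They were 28% of 175 such windows on chromosome 3 and 7.61% of 92 on chromosome 9. Chromosome 10 also had deeper members, with medians of 610 reads per CpG in A129-2 and 702 in AOS-14, against 168 and 157 in members of other chromosomes. The 12 members with the most A129-2 reads were all on chromosome 10, which is also the first chromosome listed in both tables. Whether the aligner's placing of reads plays a part in this was not tested. Without chromosome 10 there were 497 members, with a mean difference of -42.6 points.

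**Figure D4:**
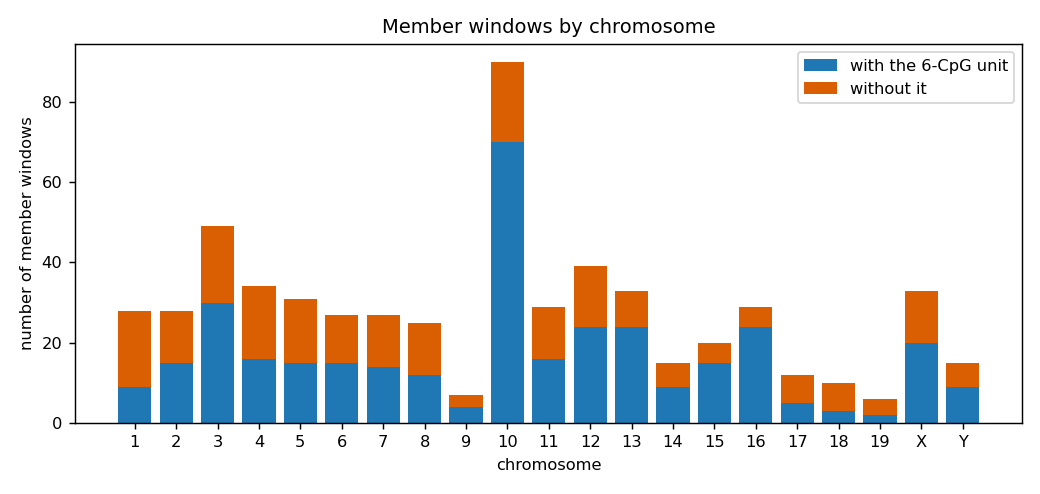
Number of member windows on each chromosome, with the 6-CpG unit (blue) and without it (orange). Chromosome 10 has 90 members, 70 of them with the unit, and chromosome 3 follows with 49.

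Chromosome Y had only 100 windows, of which 15 were members. A haploid genome holds X or Y, while both lines had reads at windows of both. Reads at windows of Y came to 246832 in A129-2 and 281266 in AOS-14, and at windows of X to 2375603 and 2641839. Where the reads placed on Y come from was not tested, so no level given for its windows is known to be that of a chromosome Y. Among the 15 members were 6 windows of 6 CpGs each, without the unit. They lay 3.14 kb to 3.15 kb from the starts of 6 different gene models, Gm21918, Gm21724, Gm28459, Gm21843, Gm21745 and Gm21805. Their levels ran from 11.7% to 19.12% in A129-2 and from 51.7% to 56.1% in AOS-14. Whether they are copies of one sequence was not tested.

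Members formed rows. Joined across gaps of up to 5 kb, the 587 windows fell into 513 loci, of which 460 were single windows and 53 were runs holding 127 windows. The unit was present in 51 of the 53 runs. The longest run had 9 windows in 8.37 kb (chr3:6298003-6306370), with 13.03% in A129-2, against 59.6% in AOS-14 over 116 CpGs. The next had 8 windows (chr10:27818444-27825847), with 16.4% and 59.8% over 397 CpGs, and holds the members with the most compared CpGs, at 59, 56, 54 and 54. The member with 59 CpGs (chr10:27823010-27823973) had 13.9% in A129-2 and 57.7% in AOS-14. A run of 5 windows (chr2:22002094-22006931) had 12.5% in A129-2 and 56.2% in AOS-14.

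Runs inside genes were short. Mup-ps15 and S100a7l2 each held a run of 3 windows, the first at 11.8% in A129-2, against 62.5% in AOS-14, and the second at 15.9% and 61.4%. Kctd8, an auxiliary subunit gene of GABA-B receptors, held a run of 2 at 11.5% and 61.2%. Cadps2, which acts in the release of dense-core vesicles, held a run of 2 at 18.97% in A129-2 and 68.3% in AOS-14. Pid1 held 1 of the runs without the unit, at 18.4% in A129-2 and 62.8% in AOS-14.

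CpGs that the rule left out gave a measure within the members that had not been used to choose them. These CpGs had fewer than 10 reads in at least 1 library, and their reads were summed per window. They come from the same libraries and can come from the same DNA fragments as the CpGs that were used. Such CpGs were listed in 433 members, and 148 members had at least 10 such reads in both libraries. Pooled over all tested members, their level was 20.05% in A129-2 (exact 95% binomial interval 18.9 to 21.3, 4384 reads) and 61.97% in AOS-14 (61.3 to 62.6, 22541 reads). A single window, chr5:109907390-109907534, had 54 of the A129-2 reads, at a level of 7.41%, and 4321 of the AOS-14 reads, at 60.3%.

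Of the 148 tested members, 146 were lower in A129-2 by any amount and 54 (36.5%) were called lower, by Fisher's exact test on reads at 25 points of difference or more and an adjusted p below 0.05. None was called higher by this test. Lower by any amount were also 88.8% of kept windows and 63.9% of all windows tested in this way, so the count of 146 says little by itself. An unadjusted p under 0.05 was found in 107 of the 148 members, 234 of 544 kept windows and 5013 of all 35849 windows. Over these 35849 windows 2.89% were called lower and 0.778% higher. Among kept windows 100 of 544 were called lower (18.4%). The test sets reads of 2 libraries against each other, and cannot speak for the lines. With at least 5 left-out reads in place of 10, 52 of 230 members were called lower, against 1.33% of all windows tested at that minimum. With at least 20 reads it was 49 of 73, against 5.12% of all windows. The share called thus depends on the read minimum. Of members with the unit 33 of 83 were called lower, and of those without it 21 of 65.

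Several of these windows, chosen after their values were seen, show the size of the gap. In the window chr13:22549318-22549787, near the vomeronasal receptor gene Vmn1r204, left-out CpGs had 11.1% in A129-2, against 85.1% in AOS-14 (18 and 67 reads, Fisher's exact test, adjusted p = 1.87e-06). At chrX:150020057-150020311, named above, they had 11.8% and 65.4% (76 and 130 reads, Fisher's exact test, adjusted p = 1.59e-11). Near Gm18100 (chr6:104362411-104362762) they had 11.1% and 67.1% (45 and 79 reads, Fisher's exact test, adjusted p = 2.17e-07). That last window has no complete unit.

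The windows that touch a member gave another measure outside the rule. There were 80 such windows with enough CpGs that were not members, and all 80 were lower in A129-2 by some amount. Their median level was 22.0% in A129-2, against 54.7% in AOS-14. Of the 80, 52 (65%) were called lower by the same test, and none higher, against 3.93% of all windows with the members left out. Here the 25 points were taken between mean CpG levels, and for left-out CpGs between levels weighted by reads. Since the difference that can be reached depends on the AOS-14 level, the counts were also split by it. Of 45 adjacent windows at 50% or more in AOS-14, 40 were called lower (88.9%), against 48% of the kept windows. Of 35 at 25% to under 50%, 12 were called (34.3%), against 6.92% of windows in that range. Windows next to kept windows, in the same range of AOS-14 levels, were called lower in 57 of 318 cases (17.9%). The difference between these shares was not tested.

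Fewer windows could be tested further away, and fewer were called. At 2 kb from a member 15 of 36 windows were called lower, at 3 kb 11 of 21, at 5 kb 12 of 27 and at 10 kb 1 of 12. Their median AOS-14 levels were also lower, at 44.2%, 46.4%, 38.3% and 21.8%. Among those at 25% or more in AOS-14, 15 of 34, 11 of 18, 12 of 19 and 1 of 5 were called. The share was 65% next to members and 12.5% over all windows of that range with the members left out. No steady fall with distance is thus seen up to 5 kb. Next to members with the unit 30 of 34 windows were called lower, and next to members without it 22 of 46. At 2, 3 and 5 kb the order was the other way round. Around members with the unit 2 of 9 windows were called lower at 2 kb, 1 of 6 at 3 kb and 0 of 4 at 5 kb, and 1 of 7 at 10 kb. Around members without it the counts were 13 of 27, 10 of 15, 12 of 23 and 0 of 5. The AOS-14 levels of these windows differed too. At 2, 3 and 5 kb their medians were 39.5%, 36.0% and 20.8% around members with the unit, where 0 windows reached 50%. Around members without it they were 47.1%, 49.5% and 40.7%, and 10, 6 and 10 windows reached 50%. Next to members the medians were 57.4% with the unit and 48.4% without it. How far the counts follow these levels was not tested. A cluster of CpGs can cross a window border, so adjacent windows can hold parts of the same sequence.

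**Figure D5:**
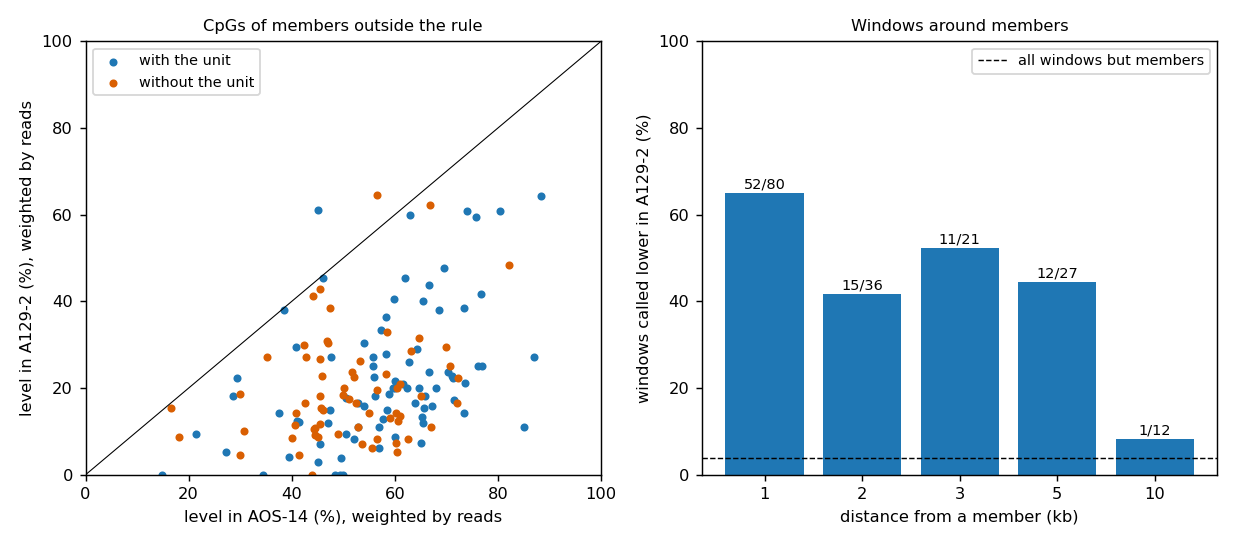
Left, the level (%, weighted by reads) of the left-out CpGs of 148 members in A129-2 (vertical) against AOS-14 (horizontal), by presence of the unit, with the line of equal levels; 146 points lie below it. Right, the share (%) of non-member windows called lower in A129-2 at 1 to 10 kb from a member, with counts above the bars and the share over all windows but members, 3.93%, as a dashed line.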

How the data were processed

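Per the labels, DNA of 1 sample of each line was bisulfite-treated and sequenced with paired reads of 50 bp. The protocol describes capture of about 100 Mb with a methylation panel, while the titles name RRBS, reduced representation bisulfite sequencing, which cuts DNA at CCGG, and the labels do not settle which was used. BSMAP and mm10 were used, per the submitters' processing notes. Its version, trimming, duplicate removal and how multiply mapping reads were placed are, for the sources used here, not given.

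Per the file headers, the authors deposited for each CpG a methylation fraction and the read counts behind it, all reads and methylated reads. The fraction equalled methylated over all reads within 0.0005. Levels were recomputed from the deposited counts as percent. Window levels are unweighted means over CpGs, and positions are 1-based. A129-2 had 153035567 reads at CpGs and AOS-14 178315194. At 10 reads, an exact 95% binomial interval around a level of 50% runs from 18.7% to 81.3%; all intervals cover counting error only.

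Windows, and the CpGs left out of them, were compared by Fisher's exact test, two-sided, on summed reads, with Benjamini-Hochberg adjustment over all windows tested. Calls needed an adjusted p under 0.05 and a difference, A129-2 minus AOS-14, of at least 25 points. For windows this was the difference of mean CpG levels, and for left-out CpGs that of levels weighted by reads. The tests and the finder of the unit were tested on simulated data. Gene positions and promoter sequences came from RefSeq tables for GRCm38.p6. The members and the lists were chosen with earlier results of these data known. Windows named are the 10 largest differences, the 5 lowest in A129-2, the 5 highest in AOS-14, the 12 largest differences in named genes, those within 1 kb of an end of such a gene, those near genes of the lists, the 3 with the most CpGs, runs within 5 kb and the 3 on either side of each limit; only the longest runs and some in genes are given. Alternatives varied the minimum of reads and CpGs, the window borders and length, the weighting, the CpGs used, strands, chromosomes and limits. The software was scipy 1.17.1, numpy 2.4.6, pandas 2.3.3 and matplotlib 3.10.9 under Python 3.11.15.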

Additional observations from a re-analysis of the deposited data

How the results depend on the processing

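No paired analysis was possible because each line has 1 library. In the alternatives only windows called lower were counted outside the rule, so these counts cannot show a change of direction. The mean difference over members stayed negative in each alternative, which the rule for members makes certain. With 3, 8 or 10 CpGs required per window in place of 5 there were 938, 280 or 219 members, and without CpGs in recurrent runs 179. With limits of 50% and 15% there were 248, with 50% and 25% 1014, with 60% and 20% 180 and with 40% and 20% 1448. Without windows that hold the unit, an alternative chosen after seeing the data, there were 236. The number of members follows these choices and means little by itself.

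The mean difference over members was -42.1 points with 5 reads and -42.3 with 30 reads per CpG, and -41.6, -42.1 and -42.5 with 3, 8 and 10 CpGs. It was -42.8 with levels weighted by reads, -44.0 with medians, -42.6 and -42.1 with windows of 500 bp and 2 kb, -41.6 without CCGG, -41.2 without recurrent runs and -42.2 without the deepest 1 percent of CpGs. It was -42.2 on autosomes, -40.1 without the unit, -42.6 without chromosome 10, and -42.98 and -42.7 on the plus and minus strands. The limits above moved it to -45.4, -38.1, -48.3 and -33.5 in the same order.

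The count of left-out CpGs called lower moved to 21 of 65 windows without the unit, and adjacent windows called lower to 18 of 41. Over all windows tested without the unit, the shares called lower were 2.70% and 4.08%. Adjacent windows called lower were 99 of 171 with 3 CpGs, 29 of 32 with 8 and 9 of 16 without recurrent runs. They were 80 of 80 with no minimum difference and 10 of 80 at 40 points or more. Over all windows, 5.15% were called lower with 3 CpGs and 3.64% with 8. The share was 2.85% without recurrent runs and 0.868% at 40 points or more. The cause was not tested; alternatives that use fewer CpGs leave fewer windows. Over all windows the share called with no minimum difference is 55.1%, so that count carries little. Left-out CpGs have few reads in A129-2, with a median of 21 per tested member, which limits the calls: at chr12:6803337-6803375 a difference of -55.3 points was not called from 12 and 25 reads (Fisher's exact test, adjusted p = 0.0704), and at chr2:102609075-102609679 in Pamr1 one of -25.6 points was called from 73 and 325 reads (adjusted p = 0.00443). The calls stood at 52 of 230 members with at least 5 left-out reads and 49 of 73 with at least 20. Over all windows tested at these minimums, 1.33% and 5.12% were called lower.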
